A study of Mus musculus with 4 samples.

Results

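Levels of messenger RNA for the translation initiation and elongation factors were measured in mouse T helper 17 (Th17) cells by RNA-seq. The factors were taken by gene symbol, as the protein-coding genes on autosomes whose symbol opens with Eif or Eef and a digit, leaving out Eif5a and the kinases whose symbol opens with Eif2ak. This rule was set with earlier results of these data known, as were the lists and tests below. It used no expression value itself and gave 59 genes, of 21764 protein-coding genes and 50600 genes in all. The genes lie on 18 chromosomes, with 6 of them on chromosome 15. All 4 libraries form 1 group of primary Th17 cells from mice of the strain C57BL/6NJ, with no treatment, second genotype or other cell type beside them, so each level describes this group and no contrast between conditions was possible. The cells came from CD4 T cells differentiated in culture per the labels. The labels number biological replicates 1 to 4 under 1 donor entry, with sex not collected and age unknown. They call the assay total RNA-seq, while the linked library protocol has poly(A)+ RNA in its name.

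Translation of a messenger RNA starts when the small ribosomal subunit, loaded with initiator tRNA by eIF2 and held by eIF3, is brought to the capped end by the eIF4 factors and scans to a start codon. The guanine exchange factor eIF2B recharges eIF2 after each round. The elongation factor eEF1A then delivers each aminoacyl-tRNA, the eEF1B complex recharges eEF1A, and eEF2 moves the ribosome along by a codon. Activated T cells are known to raise protein synthesis as they grow and divide, and the mRNAs of many of these factors belong to the class that opens with a run of pyrimidines (5′ TOP mRNAs), whose translation depends on the kinase mTOR.

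Total counts per library ran from 19332509 to 48558772, over 16486 to 18085 genes with a count. Levels are given as TPM, which is the count divided by the gene's merged exon length and scaled to the same total in each library, so that genes can be compared per length. All 5 Th17 markers lay above 1 TPM, with a summed level of 475 to 664 TPM across the libraries, and so did all 3 T cell markers that could be tested. None of the 4 B cell, 2 neutrophil, 2 erythroid and 2 NK cell markers did, and the B cell markers summed to 0.170 to 0.991 TPM. Of 4 macrophage markers, Cd68 lay above 1 TPM and the defining genes Lyz2 and Csf1r had no count. The libraries stood apart in a Y-linked gene: Eif2s3y, which encodes a copy of the gamma subunit of eIF2 and is no member of the autosomal set, had 53.7, 71.1, 0.185 and 0.132 TPM in replicates 1 to 4. Between libraries, chi-square per degree of freedom was 4.36 for replicates 1 and 2 and 5.87 for replicates 3 and 4. It was 6.88 to 11.4 for the other pairs of libraries. Whether the libraries form 2 sets was not tested, and each SD takes them as 4 separate libraries. The p-values below speak only for these 4 libraries. Those of level and of variation also lean on a dispersion shared with other genes. The tests of level and of variation were also run on replicates 1 and 2 alone and on replicates 3 and 4 alone.

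The factors formed an abundant set, and 55 of 59 lay above 1 TPM. Each gene was set against 1 TPM by a quasi-likelihood F test in edgeR, adjusted over all protein-coding genes (Benjamini-Hochberg, 0.05), and 45.9% of the 21764 genes tested lay above 1 TPM and 51.5% below it. With DESeq2's Wald test 55 factors were above and 0 below, where 67.9% of 14060 genes were above and 8.42% below. The 3 factors below were Eef1a2, Eif4e1b and Eef1akmt3, and Eif4ebp3 was on neither side. The median factor stood at 239 TPM, against 0.411 TPM for all protein-coding genes. Across the factors 5 exceeded 1000 TPM, 36 lay between 100 and 1000 TPM, 11 between 10 and 100 TPM and 7 under 10 TPM. In bulk RNA a low level cannot tell fewer cells carrying a transcript from less of it in each cell.

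Summed over the family, the factors made up 36850.0, 36250.4, 36984 and 35956 TPM in replicates 1 to 4. The mean was 36509.9 ± 488 TPM (SD, n = 4), or 3.80 ± 0.0526% of the TPM of protein-coding genes. The sums lay close together, and replicates 1 and 3 were the higher ones. Eef1a1 and Eef2 alone gave 41.7 ± 0.396% of the family's TPM. By role, the elongation core held 52.0%, eIF3 21.4%, the cap-binding and eIF4F group 13.9%, the start codon and scanning group 6.86%, eIF2B 1.91% and eIF2 with related factors 1.45%. The smallest shares were those of Eif6 with Eif5a2 at 1.00%, the repressors of eIF4E at 0.799% and the enzymes that modify elongation factors at 0.702%.

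**Figure D1:**
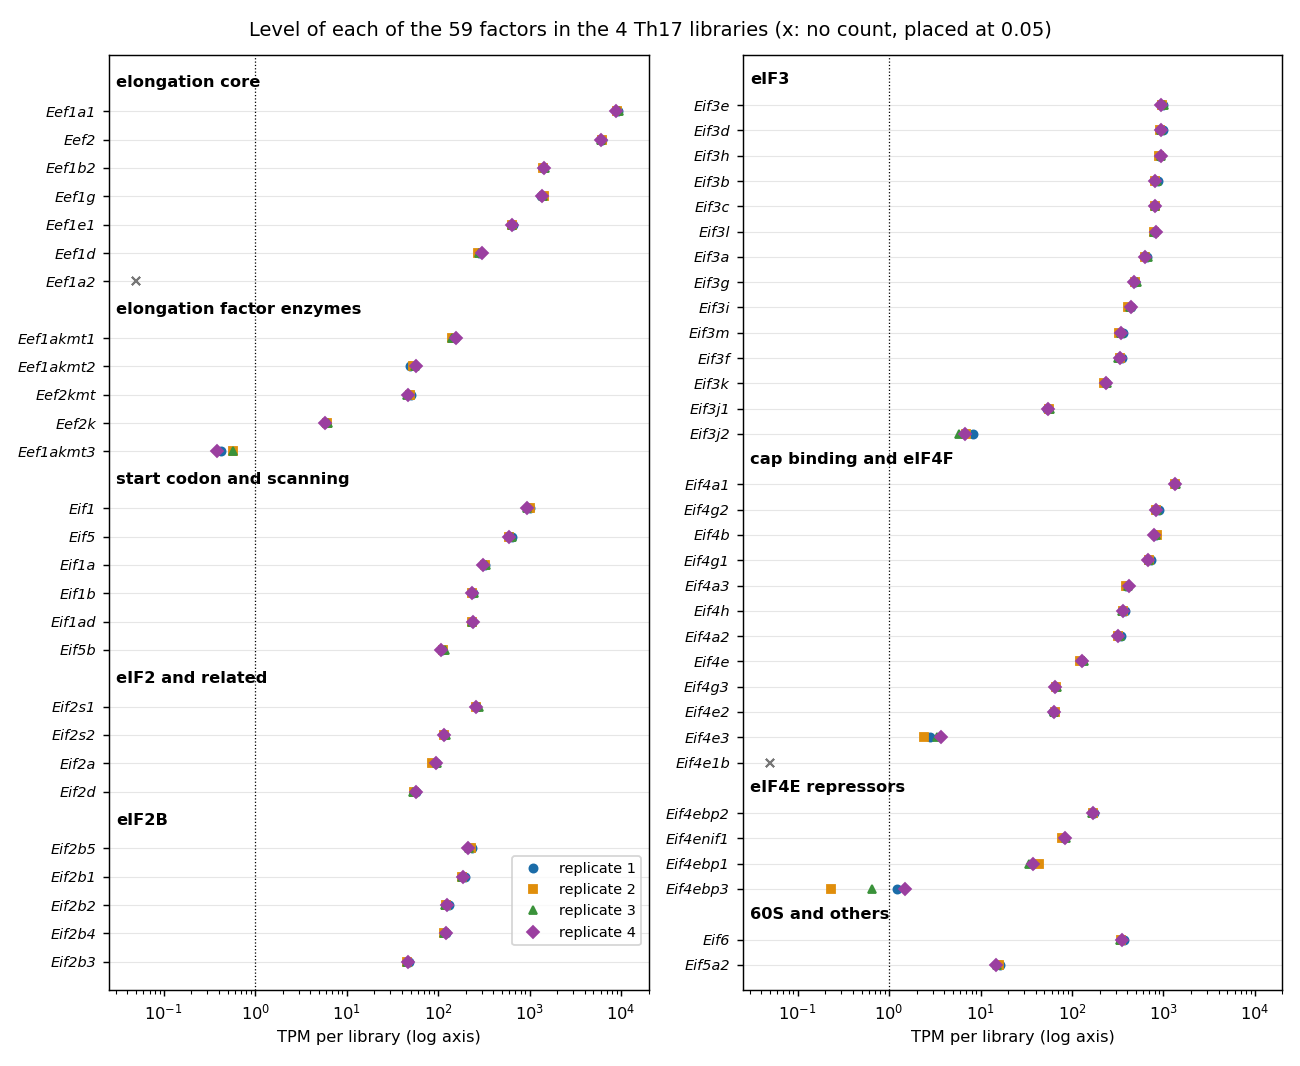
TPM of each of the 59 factors (rows, by role) in each of the 4 libraries (symbols) on a log axis, with a dotted line at 1 TPM and a cross for the 2 genes with no count. Symbols of the 4 libraries mostly cover each other, with Eef1a1 and Eef2 farthest to the right, while Eef1a2, Eif4e1b and Eef1akmt3 lie left of the line, and Eif4ebp3 has libraries on both sides of it.

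RefSeq promoter windows (assembly GRCm38.p6, which is mm10) were on hand for 43 of the 59 factors, and they show what lies at the annotated starts of these genes. A run of at least 8 bases that are each C or T, on the sense strand and touching the stretch from 15 bases before the start to 25 after it, was found for 13 of 43 factors (30.2%), against 22.8% of all 27025 genes with a window and 22.4% of the 8022 protein-coding genes above 1 TPM. A C at the start followed by 4 bases of C or T occurred for 1 factor, Eif3f (2.33%), against 3.01% of all genes. Among the 9 factors on a list of known 5′ TOP genes (Eef1a1, Eef1b2, Eef1d, Eef1g, Eef2, Eif3e, Eif3f, Eif3h and Eif4b), 5 had a window and 3 of those a run. Factors with a run had a median of 222 TPM, and those without one 296 TPM, and the ranges of the 2 sets overlapped. Each window printed here covers the 20 bases before the annotated start and the 30 from it on, with its longest run in capitals. The first 3 are the TOP-list factors with a run, the next 2 are the TOP-list factors without one, and the last, Eif2b5, holds the longest run of the family at 21 bases.
Eef1a1: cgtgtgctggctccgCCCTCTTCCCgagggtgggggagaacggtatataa
Eef2: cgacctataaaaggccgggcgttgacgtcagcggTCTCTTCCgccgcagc
Eif3f: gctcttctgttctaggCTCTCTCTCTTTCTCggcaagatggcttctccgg
Eef1b2: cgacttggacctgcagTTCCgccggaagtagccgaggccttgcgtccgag
Eif4b: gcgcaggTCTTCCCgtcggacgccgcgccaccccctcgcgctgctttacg
Eif2b5: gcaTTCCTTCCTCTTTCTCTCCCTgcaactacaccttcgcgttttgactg
They lie at chr9:78481695-78481744, minus strand (Eef1a1), chr10:81176611-81176660, plus strand (Eef2), chr7:108934395-108934444, plus strand (Eif3f), chr1:63176811-63176860, plus strand (Eef1b2), chr15:102073753-102073802, plus strand (Eif4b) and chr16:20498797-20498846, plus strand (Eif2b5). The runs of Eef1a1, Eif3f and Eif2b5 cross the annotated start, while that of Eef2 begins at base 15 of the annotated transcript. The windows follow annotated starts, and start sites were not measured in these libraries. Whether any of these runs lies in the mRNA or opens it was thus not tested, also for the TOP-list factors. A window without a run says only that no such run is in those letters.

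The hexamer CACGTG, which reads the same on both strands and is the E-box bound by MYC and related factors, occurred within 250 bases before to 50 after the start for 11 of 43 factors (25.6%). It occurred for 12.6% of protein-coding genes above 1 TPM and for 8.09% of all genes with a window. The 11 were Eef2, Eef2k, Eif1b, Eif3a, Eif3f, Eif3k, Eif4a1, Eif4e, Eif4g1, Eif4h and Eif5a2. Their median level was 335 TPM, against 230.3 TPM for the 32 factors without it, and they ran from 6.00 TPM for Eef2k to 6097 TPM for Eef2. The factors without it spanned a wider range, with Eef1a2 and Eef1a1 at its ends. The 250 bases before the start of Eef2 (chr10:81176381-81176630, plus strand) and of Eif3f (chr7:108934165-108934414, plus strand) are shown as 2 genes that hold both the hexamer, in capitals, and a pyrimidine run.
Eef2: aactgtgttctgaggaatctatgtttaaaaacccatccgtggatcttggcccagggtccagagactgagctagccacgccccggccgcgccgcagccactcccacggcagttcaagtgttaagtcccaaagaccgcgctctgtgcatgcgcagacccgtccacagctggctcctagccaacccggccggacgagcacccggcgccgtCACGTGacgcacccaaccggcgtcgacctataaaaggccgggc
Eif3f: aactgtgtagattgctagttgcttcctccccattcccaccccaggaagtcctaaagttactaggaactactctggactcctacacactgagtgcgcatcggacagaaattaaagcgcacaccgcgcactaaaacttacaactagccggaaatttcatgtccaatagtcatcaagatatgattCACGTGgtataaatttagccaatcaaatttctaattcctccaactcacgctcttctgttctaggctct
A match is a description of the letters, and binding was not measured.

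All 6 start codon and scanning factors lay above 1 TPM, with a median of 280.4 TPM. Eif1, whose product guards the choice of the start codon (chr11:100319885-100322096 in mm10, ENSMUSG00000035530), was the highest with 1017, 999, 926 and 943 TPM in replicates 1 to 4. Its mean was 971 ± 43.7 TPM (SD, n = 4 here and below), and replicates 1 and 2 were above replicates 3 and 4. The closely related gene Eif1b had 239.9, 235, 246 and 233 TPM (mean 239 ± 5.78), and its 4 libraries lay within a narrow band. Eif5, the GTPase activator of eIF2, averaged 621 ± 26.2 TPM, and Eif1a, which promotes scanning, 322 ± 8.14 TPM. Eif1ad, a relative of Eif1a with a role in maturation of the small subunit in human cells, had 237, 237, 237 and 242 TPM (mean 238 ± 2.33). Replicate 4 of Eif1ad lay above the other 3, which were nearly equal. Eif5b, the GTPase that joins the subunits, was lowest in this group with 109.8, 112, 119 and 109 TPM and a mean of 112 ± 4.54 TPM.

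The 4 genes of the eIF2 group lay above 1 TPM, with a median of 105 TPM. Eif2s1, the alpha subunit that stress kinases phosphorylate (chr12:78861819-78887010, ENSMUSG00000021116), had 257, 257, 277 and 257 TPM (mean 262 ± 10.2) in replicates 1 to 4, and Eif2s2, the beta subunit (chr2:154871410-154892935, ENSMUSG00000074656), had 116, 116, 122 and 116 TPM (mean 117 ± 2.94). In both subunits replicate 3 was the highest and the other 3 were nearly equal. The ratio of Eif2s1 to Eif2s2 was 2.22, 2.22, 2.28 and 2.20 in the same libraries. The gamma subunit is encoded on the sex chromosomes: Eif2s3x had 112, 108, 183 and 177 TPM, so the sum of Eif2s3x and Eif2s3y was 165, 179, 184 and 177 TPM. Both gamma genes were called variable between libraries (edgeR's trended dispersion, adjusted p = 1.41e-26 for Eif2s3x), whereas their sum averaged 176 ± 7.87 TPM. Eif2a, which can also bring initiator tRNA to the ribosome, had 94.3, 85.5, 97.9 and 95.1 TPM (mean 93.2 ± 5.35), with replicate 2 the lowest. Eif2d, a factor of reinitiation and ribosome recycling, was lowest of the group with 56.7, 55.0, 53.8 and 56.8 TPM (mean 55.6 ± 1.43).

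All 5 subunit genes of eIF2B lay above 1 TPM, with a median of 124 TPM. Eif2b5, the catalytic epsilon subunit (chr16:20498817-20509955, ENSMUSG00000003235), was the highest with 232, 230.4, 216 and 211 TPM (mean 222 ± 10.6), and replicates 1 and 2 lay above replicates 3 and 4. Eif2b1 averaged 186 ± 6.56 TPM, Eif2b2 124 ± 5.70 TPM and Eif2b4 119 ± 3.69 TPM, the regulatory subunits that sense phosphorylated eIF2. The ranges of Eif2b2 and Eif2b4 overlapped, and all other neighbours in the order were apart. Eif2b3, the gamma subunit (chr4:117019402-117087306, ENSMUSG00000028683), was the lowest with 47.6, 45.2, 45.4 and 46.3 TPM (mean 46.1 ± 1.08). This order holds for merged exon lengths. On the principal transcript length Eif2b3 stood at 134 TPM, above Eif2b4 at 106 TPM and Eif2b2 at 100.7 TPM.

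All 14 eIF3 genes lay above 1 TPM, and their median of 568 TPM was above that of every other initiation group. The highest, Eif3e (chr15:43250040-43282736, ENSMUSG00000022336), had 989, 963, 1005 and 948 TPM (mean 976 ± 25.4). The order given here is that on merged exon lengths. On principal transcript lengths Eif3i was the highest at 983 TPM, with Eif3e at 691 TPM and Eif3k at 564 TPM. After Eif3e on merged lengths came Eif3d, which can bind the cap of some mRNAs, at 943 ± 26.9 TPM and Eif3h at 919 ± 30.1 TPM. The ranges of Eif3e, Eif3d and Eif3h overlapped one after the other. Eif3b averaged 836 ± 28.8 TPM and Eif3c, a scaffold of the complex, 802 ± 1.36 TPM, and the coefficient of variation of Eif3c was 0.170%. Eif3l averaged 799 ± 17.1 TPM and overlapped Eif3c, while Eif3a, another scaffold subunit, stood at 646 ± 21.2 TPM. Below it followed Eif3g at 490.4 ± 12.7 TPM, Eif3i at 431 ± 12.2 TPM, Eif3m at 343 ± 12.3 TPM, Eif3f at 335 ± 15.1 TPM and Eif3k at 234 ± 8.19 TPM, of which only Eif3m and Eif3f overlapped. Eif3j1, a loosely bound subunit, had 53.5, 56.7, 58.0 and 55.1 TPM (mean 55.8 ± 1.93), and its copy Eif3j2, the lowest gene of the group, 8.28, 6.90, 5.82 and 6.81 TPM (mean 6.95 ± 1.01). Both levels are uncertain, because 50.9% of the 50-base words of Eif3j1 and 91.8% of those of Eif3j2 occur in other genes, chiefly each other, and reads that map to several places were not counted. The level of Eif3d is also called uncertain, as Gm17638 holds 37.2% of its words. Words were matched on both strands, and whether reads of Eif3d were lost was not tested.

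Of the 12 cap-binding and eIF4F genes, 11 lay above 1 TPM, with a median of 346 TPM. The RNA helicase gene Eif4a1 (chr11:69666936-69672423, ENSMUSG00000059796) was the highest, with 1348, 1322, 1357 and 1348 TPM (mean 1344 ± 15.1). Since 12 other genes hold 28.4% of its words, its level is uncertain. Its paralog Eif4a2 had 342, 320.2, 333 and 321 TPM (mean 329 ± 10.4), and Eif4a3, which serves the exon junction complex, 386, 391, 407 and 419 TPM (mean 401 ± 14.9). The scaffold gene Eif4g1 had 726, 699, 699.8 and 678 TPM (mean 701 ± 19.7), Eif4g2, a relative without the eIF4E-binding site, 885, 828, 842 and 824 TPM (mean 845 ± 27.9), and Eif4g3 65.1, 67.4, 68.0 and 64.5 TPM (mean 66.2 ± 1.70). Eif4g2 thus exceeded Eif4g1 in every library, and Eif4g3 was far below both. The helicase cofactor genes Eif4b and Eif4h had 821, 857, 837 and 788 TPM (mean 826 ± 29.5) and 378, 361, 353 and 360.0 TPM (mean 363 ± 10.6).

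The genes of the cap-binding proteins themselves were lower than Eif4a1 and Eif4g1 in every library. Eif4e (chr3:138526179-138559696, ENSMUSG00000028156), the cap-binding subunit of eIF4F, had 128, 121, 134 and 128 TPM (mean 128 ± 5.09) in replicates 1 to 4, with replicate 3 highest and replicate 2 lowest. Eif4e2, whose product binds the cap without eIF4G, had 62.1, 64.4, 63.2 and 63.6 TPM (mean 63.3 ± 0.930), and Eif4e3, another relative, 2.81, 2.40, 3.32 and 3.71 TPM (mean 3.06 ± 0.574). Eif4e3 thus had a wider relative spread than the other cap-binding genes, with replicate 2 lowest and replicate 4 highest. Its level rests on only 86, 35, 87 and 136 counts, and it was not called variable between libraries. Of its exons, 14.8% overlap Gm20696 on the same strand. Eif4e1b, known as an oocyte form, had no count in any library, where 3 counts over the 4 libraries would equal 0.0310 TPM. The limit covers counting error only.

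Of the 4 repressors of eIF4E, 3 lay above 1 TPM. Eif4ebp2 (chr10:61428491-61452661, ENSMUSG00000020091), which blocks eIF4E until mTOR phosphorylates it, was the highest with 175, 171, 167 and 168 TPM (mean 170.1 ± 3.37). Eif4ebp1, the better-known relative (chr8:27260329-27276674, ENSMUSG00000031490), had 37.7, 43.7, 34.3 and 37.7 TPM (mean 38.4 ± 3.94), with replicate 2 highest and replicate 3 lowest. Eif4enif1, which carries eIF4E into the nucleus, averaged 82.3 ± 3.54 TPM. Eif4ebp3, the lowest of the group, had 1.21, 0.232, 0.646 and 1.48 TPM (mean 0.892 ± 0.560), or 11, 1, 5 and 16 counts, on either side of 1 TPM (edgeR adjusted p = 0.934). Its level is uncertain, since 67.3% of its exons overlap Ankhd1 on the same strand. Eif6, which keeps the large ribosomal subunit from joining too early, had 374, 346, 333 and 351 TPM (mean 351 ± 16.8), and Eif5a2, a paralog of the hypusine-bearing factor eIF5A, 16.2, 16.0, 15.2 and 14.8 TPM (mean 15.6 ± 0.685).

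The elongation core held the highest levels, with 6 of 7 genes above 1 TPM and a median of 1394 TPM. Eef1a1 (chr9:78478449-78489151, ENSMUSG00000037742) had 9188, 9019, 9488 and 8819 TPM in replicates 1 to 4, with replicate 3 highest and replicate 4 lowest. It averaged 9129 ± 283 TPM and ranked 2 among all protein-coding genes. As 21 other genes hold 40.4% of its words, that level is uncertain. Eef1a2, the form of muscle and neurons, had no count in any library, where 3 counts over the 4 would equal 0.0335 TPM. Against that limit Eef1a1 was at least 272278-fold higher. Eef2 (chr10:81176631-81182498, ENSMUSG00000034994) had 6139, 6182, 6075 and 5991 TPM and ranked 6, and its 4 libraries lay close together. Its mean was 6097 ± 83.1 TPM.

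The 3 subunits of the exchange complex eEF1B were unequal. Eef1b2, a subunit with exchange activity, had 1399, 1398, 1469 and 1452 TPM (mean 1429 ± 36.4) and Eef1g, the structural subunit, 1349, 1436, 1405 and 1384 TPM (mean 1394 ± 36.6), and the ranges of the 2 overlapped. Eef1d, the other exchange subunit, had 278, 273, 283 and 303 TPM (mean 284 ± 13.2), with replicate 4 highest, and lay far below both. The level of Eef1g is uncertain, with 44.2% of its words shared. Eef1e1, named for its likeness to elongation factors and known as a subunit of the multi-tRNA synthetase complex, averaged 649 ± 12.8 TPM. On principal transcript lengths Eef1e1 stood at 181 TPM, below Eef1d at 502 TPM, and Eef1b2 at 1292 TPM, below Eef1g at 1345 TPM. The principal length of Eef1e1, 2553 bases in GENCODE M21, exceeds its merged length of 1032 bases in GENCODE M13. Its 181 TPM thus divides counts over M13 exons by a longer M21 transcript, and does not compare 2 lengths of 1 annotation.

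The enzymes that modify elongation factors were the lowest group, with 4 of 5 genes above 1 TPM and a median of 48.2 TPM. Eef1akmt1, a lysine methyltransferase of eEF1A, was highest with 153, 140.3, 141 and 157 TPM (mean 148 ± 8.59), and Eef1akmt2 averaged 53.7 ± 3.48 TPM. Eef2kmt, which methylates eEF2, averaged 48.2 ± 2.01 TPM. Eef2k (chr7:120842831-120907450, ENSMUSG00000035064), the kinase that inhibits eEF2, had 5.84, 6.04, 6.32 and 5.79 TPM (mean 6.00 ± 0.238), a low level that was even across the libraries. Eef1akmt3 had 0.423, 0.572, 0.565 and 0.379 TPM (mean 0.485 ± 0.0986), from 14, 9, 16 and 15 counts, and was called below 1 TPM (edgeR adjusted p = 0.00306). DESeq2's Wald test did not call it (adjusted p = 0.396), nor did replicates 1 and 2 alone (adjusted p = 0.0586).

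The 4 libraries differed little in these genes. Of 55 factors with a mean of at least 1 TPM, 50 had every library within 0.1 of their mean on the log2 scale. Deviations of single libraries ran from −0.35 for replicate 2 to 0.28 for replicate 4, both in Eif4e3, which had 35 to 136 counts per library. In replicate 1, 34 of the 55 were above their mean, in replicate 2 16, in replicate 3 30 and in replicate 4 20, while the median deviations were 0.0099, −0.0196, 0.0034 and −0.0124. Eif3j2, Eif4e3, Eif4ebp1, Eif2a and Eef1akmt2 were the 5 outside the band.

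**Figure D2:**
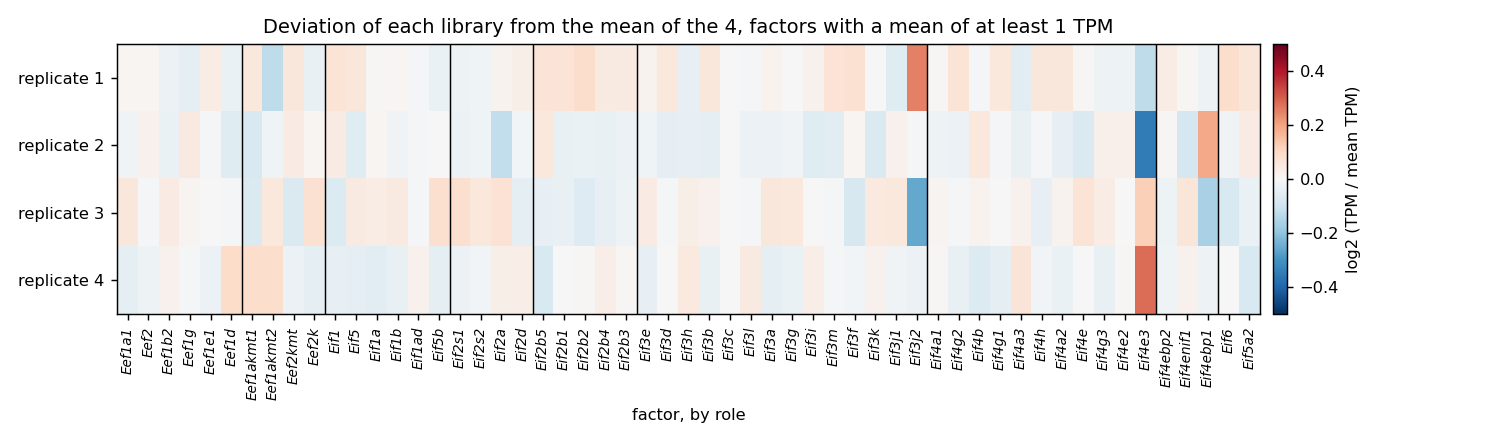
Deviation of each library (rows) from the mean of the 4, as log2 of TPM over mean TPM (colour), for the 55 factors with a mean of at least 1 TPM, in columns by role with lines between roles. Most cells are pale, and the strong colours sit in Eif3j2, Eif4e3 and Eif4ebp1.

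None of the 56 factors with a mean of at least 10 counts was called variable between libraries, where 0.366% of 12849 genes were (47 genes by the deviance under edgeR's dispersion trend, one-sided, Benjamini-Hochberg at 0.05). At an unadjusted p under 0.05 there were also 0 factors, against 628 genes (4.89%). The smallest unadjusted p was 0.139, for Eif2a. Deviance per degree of freedom averages about 1 over genes that follow the trend, and the typical gene lies below 1. Its median over the factors was 0.293, against 0.586 over all genes tested, which differ in abundance. Over the 26 other pathway genes described below it was 0.237. The deviance per degree of freedom lay under that all-gene median for 43 of the 56 factors and above 1 for 6. These were Eif2a at 1.83, Eif4ebp1 at 1.62, Eif4enif1 at 1.10, Eif3j2 at 1.05, Eef1akmt2 at 1.02 and Eif4e3 at 1.01. The median coefficient of variation was 3.37% for the factors and 6.16% for all genes tested, which differ in abundance. Among the 41 factors above 100 TPM the highest coefficient was 5.81%, in Eef1akmt1. With replicates 1 and 2 alone, with 3 and 4 alone, or with DESeq2's size factors in place of TMM, 0 factors were called.

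**Figure D3:**
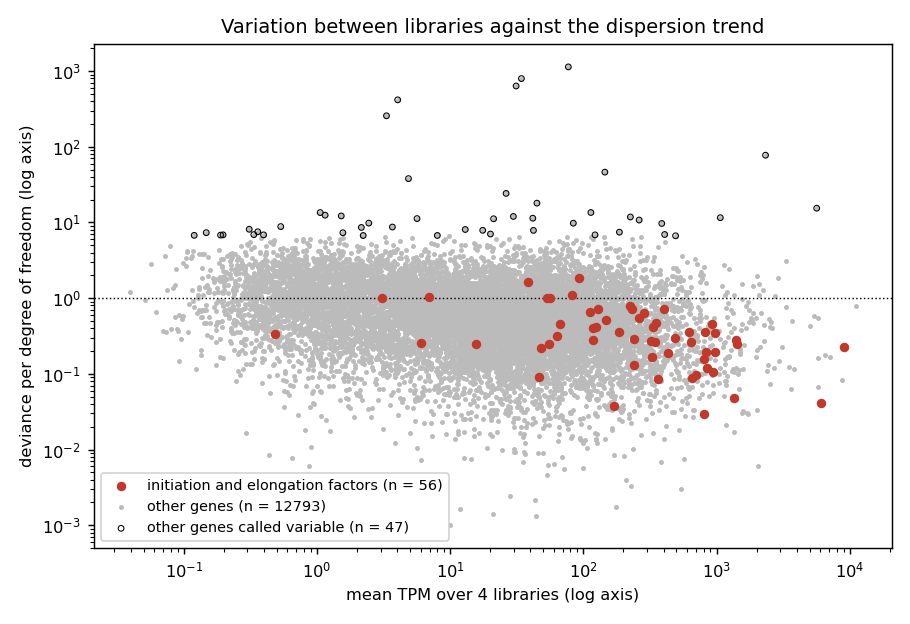
Deviance per degree of freedom at the trended dispersion against mean TPM, both on log axes, for the 56 factors (red), all other genes tested (grey) and the 47 genes called variable (outlined), with a dotted line at 1. Red points lie mostly below the line, as does the median of all genes tested (0.586), and none is outlined.

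Subunits of a complex were compared within each library, first with the merged exon length that the tables give. For the 12 core subunits of eIF3, the highest gene Eif3e exceeded the lowest, Eif3k, by 4.18 ± 0.135 times (SD, n = 4). For eIF2B, Eif2b5 exceeded Eif2b3 by 4.82 ± 0.227 times, for eEF1B Eef1b2 exceeded Eef1d by 5.07 ± 0.210 times, and for the autosomal subunits of eIF2 Eif2s1 exceeded Eif2s2 by 2.23 ± 0.0317 times. For eIF4F, Eif4a1 exceeded Eif4e by 10.5 ± 0.308 times. The ratios were stable between libraries and moved with the gene length. A merged exon length counts every annotated exon of a gene, and it was over 1.5 times the length of the principal transcript for 18 of the 59 factors.

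With the principal transcript length, the ratio of highest to lowest was 3.69 for eIF3 (Eif3i over Eif3f), 1.92 for eIF2B (Eif2b5 over Eif2b2), 2.69 for eEF1B (Eef1g over Eef1d), 1.22 for eIF2 and 21.4 for eIF4F. Within eIF2B the lowest subunit was then Eif2b2 and no longer Eif2b3. The level of Eif2b3 was 46.1 TPM on its merged length of 6520 bases and 134 TPM on its principal length of 1555 bases. A gene whose length does not change falls to 0.692 of its TPM under this setting, since the denominator grows. The levels of 13 factors moved by over 1.5 times. Beside Eif2b3 they included Eif4e2 (63.3 and 182 TPM on merged and principal length), Eif3k (234 and 564 TPM) and Eif2d (55.6 and 132 TPM). Eif3i (431 and 983 TPM) and Eef1e1 (649 and 181 TPM) were also among them. That count includes the common fall, so it takes in Eef1akmt1 (836 and 880 bases) and leaves out Eif4g3 (11063 and 6139 bases). The principal length of Eef1e1 is 2553 bases in GENCODE M21, above its merged length of 1032 bases in GENCODE M13.

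**Figure D4:**
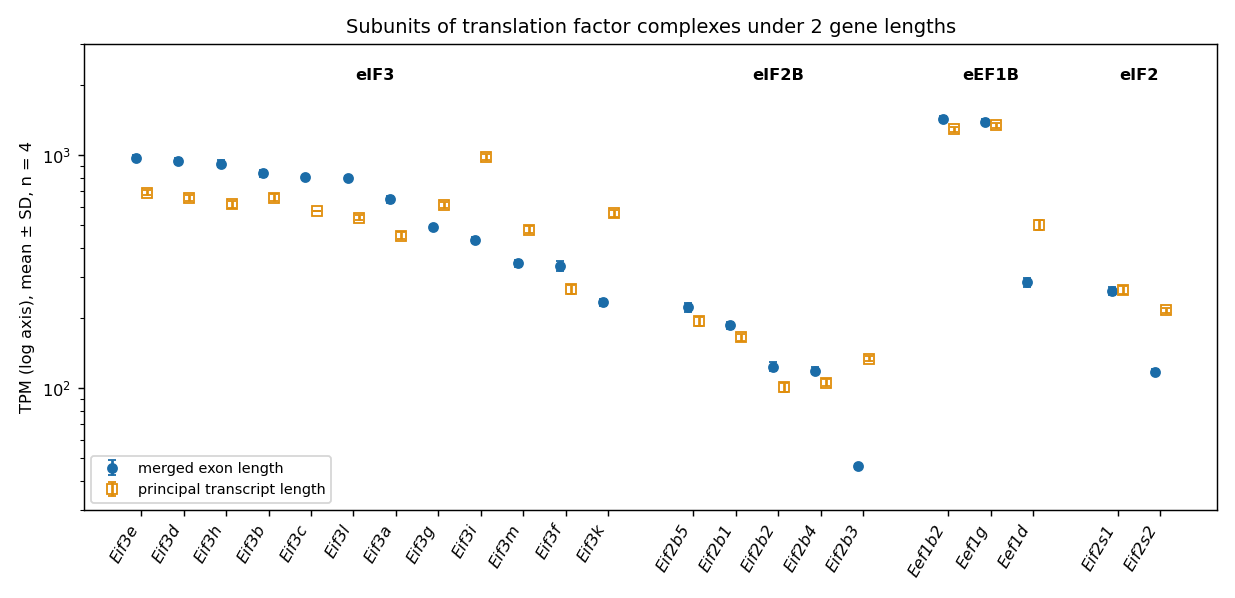
Mean TPM of each subunit (log axis) with the SD over 4 libraries, with the merged exon length (filled circles) and the principal transcript length (open squares), for eIF3, eIF2B, eEF1B and the autosomal subunits of eIF2. Eif2b3, Eif3i and Eif3k move up and most other eIF3 subunits move down when the principal length is used, where a gene of unchanged length falls to 0.692 of its TPM.

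Paralogs and partners were compared as 15 pairs within each library. In all 15 the difference in log2(TPM + 1) had the same sign in 4 of 4 libraries, and the exact two-sided sign-flip permutation p was 0.125 for each, adjusted p = 0.125 over the 15, the smallest that 4 libraries allow. No pair could therefore pass 0.05. The mean ratio of Eif4a1 to Eif4a2 was 4.08 ± 0.108 and that of Eif4a1 to Eif4a3 was 3.36 ± 0.112. Eif1 to Eif1b stood at 4.08 ± 0.225, Eif4g1 to Eif4g2 at 0.830 ± 0.0104, Eif4g1 to Eif4g3 at 10.6 ± 0.391 and Eif4ebp1 to Eif4ebp2 at 0.225 ± 0.0222. In each of these pairs the same gene was the higher in every library, by under 1.5 times only between Eif4g1 and Eif4g2. Eif4e to Eif4e3 gave 42.7 ± 6.95 and Eif4e2 to Eif4e3 21.3 ± 4.22, both wider in relative spread than the pairs before. Both rest on the 35 to 136 counts of Eif4e3 per library. The ratios of Eif3j1 to Eif3j2, 8.19 ± 1.43, and of Eif4ebp2 to Eif4ebp3, 313 ± 288, rest on genes with shared or overlapping sequence, and that of Eif4ebp2 to Eif4ebp3 ran from 114 to 735.

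With the principal transcript length the order of Eif4e and Eif4e2 turned and Eif4b no longer stood apart from Eif4h. Eif4e exceeded Eif4e2 by 2.02 ± 0.0996 times on merged lengths, but stood at 0.586 ± 0.0289 of it on principal lengths. Eif4b exceeded Eif4h by 2.28 ± 0.111 times on merged lengths, and their ratio was 0.970 ± 0.0474 on principal lengths, where the exact sign-flip permutation p was 0.5 (n = 4). For Eef1d to Eef1b2 the ratio was 0.199 ± 0.00704 and 0.388 ± 0.0137, below 1 under both, and for Eif2s1 to Eif2s2 it was 2.23 ± 0.0317 and 1.22 ± 0.0174. Eif4e2 to Eif4e3 stood at 88.2 ± 17.5 on principal lengths and Eif4a1 to Eif4a3 at 5.83 ± 0.195, both over 1.5 times their merged-length values with the same gene the higher.

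**Figure D5:**
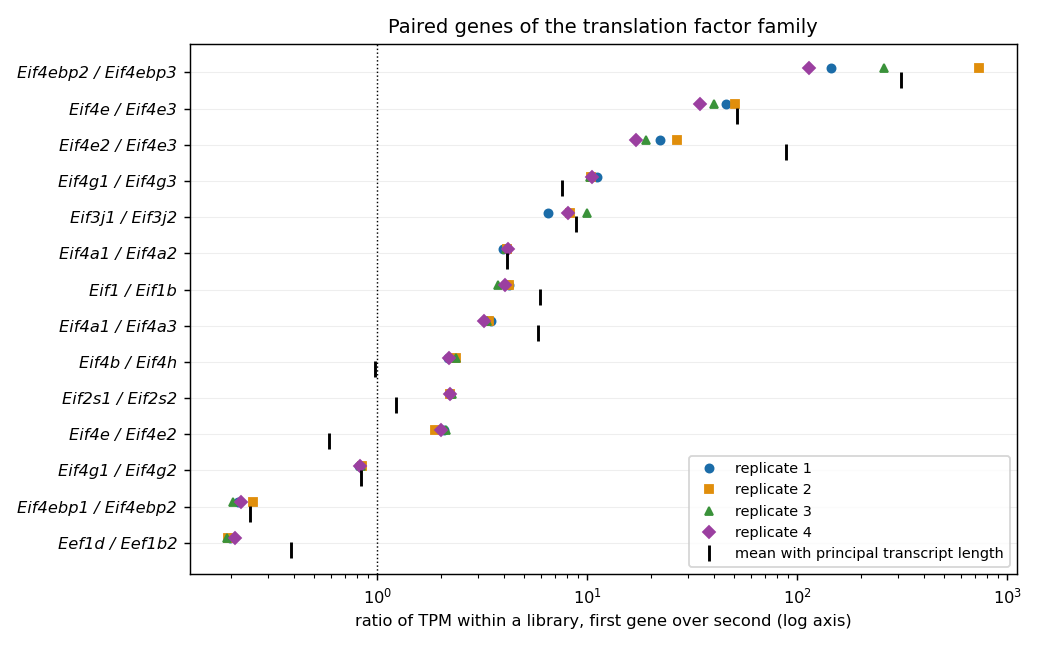
Ratio of TPM within a library for 14 pairs (rows, first gene over second) on a log axis, with a symbol for each library and a black bar for the mean with the principal transcript length, and a dotted line at 1. Libraries agree closely in most pairs, and the black bar lies on the other side of the line from the symbols for Eif4e over Eif4e2 and close to the line for Eif4b over Eif4h.

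The other genes of the pathway were given by a list of 26, holding termination and recycling factors, poly(A)-binding proteins and their partners, eIF4E kinases, S6 kinases and the enzymes that make diphthamide on eEF2. All 26 lay above 1 TPM by the same edgeR test, against 45.9% of protein-coding genes, and 0 were called variable (0 also at an unadjusted p under 0.05), with a median level of 63.1 TPM and a median deviance per degree of freedom of 0.237. The highest were Pabpc1, which binds poly(A) tails, at 1159 ± 32.7 TPM, the release factor gene Etf1 at 753 ± 20.9 TPM and its GTPase partner Gspt1 at 490.2 ± 9.33 TPM. Lowest were Dph5, a diphthamide enzyme, at 23.2 ± 0.327 TPM and Pdcd4, an inhibitor of eIF4A, at 23.8 ± 1.57 TPM. That order turned with the gene length: on principal lengths Dph5 was at 81.8 ± 1.17 TPM. The lowest were then the S6 kinase gene Rps6kb2 at 10.5 ± 0.344 TPM and Pdcd4 at 17.4 ± 1.16 TPM. The principal length of Rps6kb2, 4586 bases in GENCODE M21, exceeds its merged length of 2445 bases in GENCODE M13. Its 10.5 TPM thus divides counts over M13 exons by a longer M21 transcript. The 9 factors on the TOP list had a median of 976 TPM and held 58.6% of the family's TPM, and the 50 factors outside it had a median of 178 TPM.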

How the data were processed

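RNA-seq was deposited for 4 libraries of Th17 cells, which form 1 group. The deposited counts are whole numbers of read pairs for each gene. Per the file headers, the authors made them with featureCounts 1.4.6-p4 against mm10 exons of GENCODE M13. The options given there require both ends to map, use reverse strand and leave out pairs that map to several places, so genes with near-identical copies lose reads. No version of the aligner was given in the sources used here. A sample at 24 hours is named in the headers and not in the labels. The deposited tables also hold 1 other value per gene, its merged exon length. Symbols came from GENCODE M21 by Ensembl identifier, which matched 50376 (99.6%) of 50600 genes.

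TPM was computed from the deposited counts and merged exon lengths over all genes. Levels were set against 1 TPM in edgeR 4.0.16 (R 4.3.3) with a quasi-likelihood F test on the intercept, two-sided, with the log count of 1 TPM as offset. Variation between libraries was tested where the mean count was 10 or more (TMM normalization), by comparing the negative binomial deviance under the dispersion trend with chi-square at 3 degrees of freedom. Both were adjusted by Benjamini-Hochberg over all genes of the test, at 0.05. These tests lean on a dispersion shared with other genes. Both were tested on simulated data. Pairs were compared as log2(TPM + 1) within a library, with an exact sign-flip permutation test. The depth of 19332509 to 48558772 counts limits the lowest genes, and a gene without counts gets the TPM of 3 counts over the 4 libraries as its limit. Counts are of reads, not of independent molecules.

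A level is called uncertain where at least 25% of a gene's 50-base words (M21 transcripts, both strands) occur in other genes. The principal transcript length is that of the longest APPRIS principal transcript in the basic set of M21. It thus comes from another release than the counts and merged lengths of M13. For Eef1e1 and Rps6kb2 it is far above the merged length, and for Eif1ad, Eif3h, Eif3l, Eif4b and Eef1akmt1 slightly above it. Every factor found by the symbol rule was to be named with its level, with each library's value for the highest and lowest of each role, for those not above 1 TPM, for paired genes and for those with a library far from the rest. Of the pathway list (Gcn1 under its M21 symbol Gcn1l1), the 3 highest and 2 lowest are named. The members, lists and tests were chosen with earlier results of these data known. Alternatives were DESeq2 1.42.0, limma 3.58.1, other thresholds, filters, scalings, pseudocounts and gene lengths, and fewer libraries.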

Additional observations from a re-analysis of the deposited data

Results flagged for a closer look

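In 3 of the 57 factors with a count, and in 3 of 81 values examined in all, 1 library lay far from the others relative to the whole range of the 4. Chance alone gives about 1 in 20 such values. For Eif2s1 the gap between replicate 3, the highest, and the next library was 0.964 of the range, with 257, 257, 277 and 257 TPM in replicates 1 to 4. For Eif2s2 it was 0.883 of the range, again with replicate 3 the highest, at 116, 116, 122 and 116 TPM. For Eif1ad it was 0.893 of the range, with replicate 4 the highest, at 237, 237, 237 and 242 TPM. None of the 3 genes was called variable between libraries by the deviance test, and their coefficients of variation were 3.90%, 2.50% and 0.977%.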

How the results depend on the processing

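The count of factors above the level tested was 55 or 56 under every alternative run, and 0 factors were called variable under each, with 1 at an unadjusted p under 0.05 without replicate 1. The count below 1 TPM was 0 by DESeq2, which gave no adjusted p for the 2 factors with no count, and 1 with a filter at a mean of 10 counts, which leaves those 2 out. Eif4ebp3 was above 0.5 TPM (adjusted p = 0.0341) and below 2 TPM (adjusted p = 0.0217) in edgeR. Gene length, an alternative chosen after seeing the data like the fits on pairs of libraries, had the widest effect: the log2 difference became −0.77 for Eif4e minus Eif4e2 and −0.045, near 0, for Eif4b minus Eif4h (exact sign-flip permutation p = 0.5), and the highest-to-lowest ratio moved to 3.69 for eIF3, 1.92 for eIF2B, 2.69 for eEF1B, 1.22 for eIF2 and 21.4 for eIF4F. With Eif3j1 included the eIF3 ratio was 17.5. The summed level was 38504 TPM over protein-coding genes without mitochondrial ones, which drops genes from the denominator, and 34426 TPM with principal lengths, and the family's share was 3.51% by counts. No paired contrast between conditions was possible because all 4 libraries form 1 group, and only genes were paired, within each library. Depth limits the factors with few or no counts, and shared words may limit those whose level is called uncertain.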

Other observations

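Several genes named as pseudogenes of translation factors had counts in the same libraries. Eif4a-ps4, the annotated pseudogene that shares most words with Eif4a1, had 54.0, 52.6, 46.3 and 49.9 TPM in replicates 1 to 4, against 1348, 1322, 1357 and 1348 TPM for Eif4a1 itself. Eif5al3-ps, named for the Eif5a family, whose gene Eif5a is not among the 59, averaged 5.43 ± 0.869 TPM, Eif3s6-ps1 4.32 ± 0.995 TPM and Eif3s6-ps2 3.48 ± 2.05 TPM (SD, n = 4). The last of these rests on 15, 2, 11 and 6 counts in replicates 1 to 4. Reads that map to several places were not counted, so each of these levels comes from pairs placed at 1 site only. Eif1ax, the X-linked counterpart of Eif1a and no autosomal gene, was even across the libraries at 131, 135, 135 and 138 TPM, where Eif1a averaged 322 ± 8.14 TPM.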
